A study of Nothobranchius furzeri with 2 samples.

Results

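The comparison is of age within male killifish that had been depleted of germ cells: the skeletal muscle of 5 old animals (3 months) against that of 5 young animals (1.5 months). The 10 libraries were taken by their labels in the count table, which give treatment, age, tissue and sex, out of 40 muscle libraries and 80 libraries in all. Every fish was an African turquoise killifish (Nothobranchius furzeri) of the short-lived GRZ strain. All 10 animals carried the same treatment, an injection at the embryo stage of a morpholino, an antisense oligonucleotide, against dead end (dnd), a gene that primordial germ cells need to survive. The knockdown acts in the embryo and leaves the genome as it was, so the animals differ from a mutant line, and age was the only labelled difference between the groups. The study raised such fish singly in their tanks from the juvenile stage. For 2 further comparisons, the same ages were taken in control males, injected with a standard control morpholino, and in germ cell–removed females, with 5 animals per group. Each library came from 1 animal, and RNA was counted by BRB-seq, in which each animal's cDNA is primed at the poly(A) tail and given a barcode. The 40 muscle libraries were deposited under 1 sample label, a muscle pool.

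Skeletal muscle is built mostly of multinucleated fibres filled with sarcomeres, the actin and myosin units that shorten when calcium leaves the sarcoplasmic reticulum. Between the fibres lie fibroblasts, which make the collagens of the connective tissue, and satellite cells, the stem cells from which fibres grow and are repaired. In many vertebrates collagen synthesis is high while the body grows and declines once growth slows, and the muscle of many fish goes on adding fibres after hatching.

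Depth ran from 129270 to 216291 counts in old and from 170741 to 208929 counts in young males, after the reads of all 10 libraries had been sampled down to a common number. CPM stands for counts scaled to a common library total, and after the scaling used for the levels below a single count was worth 3.80 to 7.47 CPM in old and 5.44 to 7.54 CPM in young libraries. In these data a gene at 0 in a library was not detectable below 3 counts, a limit that covers counting error only. Old libraries held 5872 to 7632 detected genes and young libraries 5615 to 6339. The 20 most abundant genes took 47.6 to 55.9% of the counts in old and 59.6 to 64.3% in young males, so the groups did not overlap in how much of the RNA a few transcripts took. Levels of single genes are given below as CPM after TMM normalisation, which sets the scale by the bulk of genes and not by the most abundant ones. Fast-fibre markers were abundant in all 10 libraries (11 tested genes, 43994 to 82274 CPM in old and 114707 to 147669 CPM in young males in sum). The 14 genes that took over 1% of any of the 10 libraries held 43.5 to 52.2% of the counts in old and 55.3 to 59.6% in young males, and 8 of them were called lower and 1 higher. The higher gene, without a name, took 0.135 to 1.25% in old and 0.185 to 0.327% in young males. Its adjusted p was 0.0499 by edgeR's test, and its call was lost without any 1 of 6 libraries. Of the 14 genes, NME2B.2, a nucleoside diphosphate kinase, was not called and took 6.67 to 12.4% in old and 8.62 to 9.38% in young males. MARK4A, also not called, took 2.22 to 4.22% in old and 2.70 to 2.83% in young males. Germ cell transcripts were near 0 at both ages, which in muscle does not test whether germ cells had been removed. The gene VASA and 1 of the 2 lines named DND had 0 counts in all 10 libraries, and the other DND line had 0, 1, 1, 2 and 3 counts in old and 0 in every young library.

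Of 5227 genes tested, 179 (3.42%) differed between old and young germ cell–removed males at an adjusted p under 0.05 (edgeR's quasi-likelihood test, Benjamini-Hochberg adjustment). Of these, 100 (1.91%) were higher and 79 (1.51%) lower in old males. The change exceeded 1 on the log2 scale for 135 of them, and the values of old and young animals did not overlap for 109, against 202 (3.86%) over all genes tested. The genes that were lower were the more abundant (median 608 counts over the 10 libraries, against 138.5 for those that were higher). The split changed with the scaling. On plain library sizes, without TMM, 508 genes were called, 477 higher and 31 lower, and the median log2 fold change of all genes was 0.63 instead of 0.12. In DESeq2's Wald test 122 genes were called, 56 higher and 66 lower. A change given below can be read against that median. With each library left out in turn, 83 of the 179 calls were kept every time, 45 of the higher and 38 of the lower genes. The number of calls then lay between 112 and 247, and it was 112 without young replicate 2, 117 without young replicate 4 and 116 without old replicate 5.

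The collagens had the lowest median change of the 28 pathway lists. These lists were chosen with earlier results of these data known, so their ranks only describe. Of 22 tested collagen genes, 9 were lower in old males, none was higher, and their median log2 fold change was −1.21 (−0.73 on plain library sizes), against 0.12 (0.63) over all genes. Type I collagen, the main fibre-forming collagen of connective tissue, is encoded by 3 genes here. COL1A1A (Nfu_g_1_018490, sgr16 from 2698170 to 2722874 on the minus strand) had 575, 95.5, 528, 81.9 and 201 CPM in old males, against 1099, 1177, 1459, 1696 and 1471 CPM in young males. COL1A1B (Nfu_g_1_023149, sgr12 from 16044174 to 16064868 on the plus strand) had 785, 169, 704, 49.1 and 198 CPM in old males, against 1599.9, 1373, 1919, 2594 and 2165 CPM in young males. COL1A2 (Nfu_g_1_013298, sgr09 from 8260227 to 8280793 on the minus strand) had 807, 143, 552, 90.1 and 224 CPM in old males, against 1758, 1709, 1829, 2465 and 2313 CPM in young males. For each of the 3 genes every old animal lay below every young one, with old replicates 1 and 3 the highest and old replicates 2 and 4 the lowest of the old group. COL1A1A had a log2 fold change of −2.27 (SE 0.32, adjusted p = 3.76e-05), COL1A1B a log2 fold change of −2.39 (SE 0.37, adjusted p = 9.95e-05) and COL1A2 a log2 fold change of −2.52 (SE 0.33, adjusted p = 1.37e-05). All 3 calls were kept under every alternative tried. Since whole tissue was sampled, fewer fibroblasts and less collagen RNA per fibroblast cannot be told apart.

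Type X collagen, known from hypertrophic cartilage in mammals, was counted on 2 lines. COL10A1 (1 OF 2) had 105, 0, 205, 0 and 38.0 CPM in old males, against 359, 247, 350.2, 437 and 539.7 CPM in young males. COL10A1 (1 OF 2) changed by −2.61 on the log2 scale (SE 0.48, adjusted p = 0.00103). Its call was lost in DESeq2's Wald test (adjusted p = 0.218), and old replicates 2 and 4 held no count of it. The second line, COL10A1, had few counts (3, 0, 3, 0 and 1 in old and 8, 6, 5, 3 and 12 in young males), with a log2 fold change of −2.49 (SE 0.61, adjusted p = 0.0132). The call was lost without old replicate 5 or young replicate 5 (adjusted p = 0.0655 to 0.0849). Of the other fibre-forming collagens, COL5A1 and COL5A2 (1 OF 2), chains of the type V collagen on which type I fibrils start, had log2 fold changes of −1.22 (adjusted p = 0.0118) and −1.45 (adjusted p = 0.0156). In both, old replicate 1 lay within the young range, with 306 and 149 CPM, and the other 4 old animals lay below it. COL11A1B, a chain of the related type XI collagen, changed by −1.42 (adjusted p = 0.024), and COL6A2, of the microfibrils around the fibres, by −1.26 (adjusted p = 0.0239). COL5A1 lost its call without old replicate 5 or young replicates 4 or 5 (adjusted p = 0.0505 to 0.0536), COL5A2 (1 OF 2) without old replicates 2 or 5 or young replicates 2, 3 or 5 (adjusted p = 0.0537 to 0.0811), COL6A2 without old replicates 2, 4 or 5 or young replicates 2, 3, 4 or 5 (adjusted p = 0.0543 to 0.115) and COL11A1B without old replicates 2, 4 or 5 or young replicates 1, 2, 3 or 5 (adjusted p = 0.0556 to 0.0813). The number of collagens called lower accordingly fell to 4 without old replicate 5 or young replicate 5, and to 5 on plain library sizes.

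Among 24 tested genes for collagen processing and other matrix proteins, 3 were lower and none higher (median −0.53, −0.03 on plain library sizes). POSTNB, a periostin that binds collagen fibrils, had 119.6, 86.8, 129, 16.4 and 57.0 CPM in old males, against 261, 247, 311, 196 and 315 CPM in young males, without overlap. POSTNB changed by −1.76 on the log2 scale (SE 0.31, adjusted p = 0.000597). PRELP, a small leucine-rich proteoglycan, had 97.1, 43.4, 41.1, 40.9 and 49.4 CPM in old males, against 119.7, 162, 136, 158 and 148 CPM in young males. Its old replicate 1 stood well above the other old animals yet below every young one, and its log2 fold change was −1.45 (adjusted p = 0.00278, lost on plain library sizes at adjusted p = 0.0536). LOX, the enzyme that cross-links collagen, had 29.9, 4.34, 17.6, 12.3 and 3.80 CPM in old males, against 65.3, 22.4, 45.4, 75.4 and 32.1 CPM in young males. LOX changed by −1.94 on the log2 scale (SE 0.51, adjusted p = 0.0211). The ranges of LOX overlapped, and the call was lost without old replicates 2 or 5 or young replicates 1, 3 or 4 (adjusted p = 0.0549 to 0.109). Without old replicate 1 or old replicate 3, 5 genes of this list were called lower. On plain library sizes 1 was lower and 3 were higher.

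**Figure D1:**
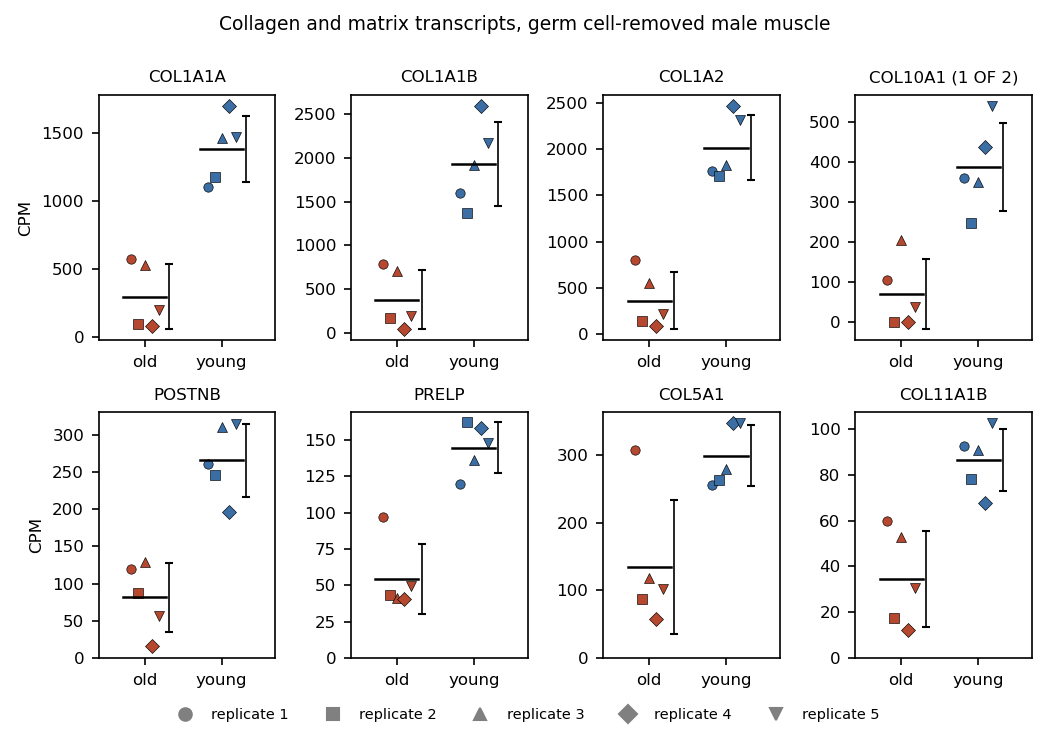
Level of 8 collagen and matrix transcripts (CPM, TMM-scaled library sizes, y axes differ) in each of 5 old and 5 young germ cell–removed males; symbols mark replicates, horizontal lines the mean and error bars 1 SD. For COL1A1A, COL1A1B and COL1A2 all 5 old animals lie below all 5 young animals, whereas for COL5A1 old replicate 1, at 306 CPM, lies among the young.

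Among the same lists, the contractile apparatus of the fast fibre held the most genes called lower. Of 44 tested fast sarcomere genes, 13 were lower and 1 was higher in old males (median −0.55). Together the 44 genes took 169959 to 337137 CPM in old and 416655 to 529123 CPM in young males in sum, without overlap. ACTC1A, a sarcomeric alpha-actin listed on several lines, here Nfu_g_1_015319, had 4984, 3134, 6644, 2117 and 3544 CPM in old males, against 11558, 11076, 13235, 10359 and 9245 CPM in young males. ACTC1A changed by −1.44 on the log2 scale (SE 0.23, adjusted p = 0.000205). TNNI2 (5 OF 5), the inhibitory subunit of fast troponin, is also a name of more than 1 tested line, and only Nfu_g_1_005734 was called. That line had 6194, 2669, 6286, 2178 and 3412 CPM in old males, against 9578, 10488, 12534, 12116 and 9720.3 CPM in young males. TNNI2 (5 OF 5) changed by −1.39 on the log2 scale (SE 0.24, adjusted p = 0.000425). In both genes old replicates 1 and 3 were again the highest old animals, and none reached the young range. The calcium-binding subunit TNNC2 averaged 30.9 ± 13.1 CPM in old and 111 ± 31.8 CPM in young males (SD, n = 5 each; log2 fold change −1.84, SE 0.35, adjusted p = 0.00146). TNNC2 and TAF13 are gene models on opposite strands of sgr15 that overlap. TAF13, the model of a general transcription factor subunit, held 0.918 to 1.61% of the counts in old and 2.03 to 2.50% in young males (log2 fold change −1.30, SE 0.24, adjusted p = 0.00128), and whether counting used the strand is not given in the sources used here, so the counts of the 2 genes may not be separate. Near-identical copies, such as the actin lines, COL1A1A and COL1A1B or lines marked 1 OF 2, could likewise share reads, since the handling of reads that map to several places is not given in the sources used here.

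Further genes of the thin and thick filaments were lower. TPM1, a tropomyosin that lies along actin, changed by −1.13 (adjusted p = 0.0111) and TNNT3A, the tropomyosin-binding troponin of fast fibres, by −0.90 (adjusted p = 0.0189). The regulatory myosin light chain MYLPFA averaged 50376 ± 15479 CPM in old and 104268 ± 11905 CPM in young males and the light chain MYLZ3 38262 ± 8701 CPM in old and 78442 ± 8419 CPM in young males (SD, n = 5 each), with log2 fold changes of −1.05 and −1.04 (adjusted p = 0.012 and 0.00842). ACTC1B, the most abundant actin line, held 9.86 to 15.8% of all counts in old and 16.0 to 18.6% in young males (log2 fold change −0.98, SE 0.28, adjusted p = 0.0383), and MYBPC2B, fast myosin-binding protein C, changed by −0.95 (adjusted p = 0.00273). These 6 calls were kept with every library left out in turn, and that of MYBPC2B was lost on plain library sizes (adjusted p = 0.0644). The 4 remaining lower members lost their calls without single libraries. MYOM1 (1 OF 2) and MYOM1A, of the M line, changed by −0.93 and −0.79 and were lost without young replicate 4 (adjusted p = 0.0652 and 0.0513), TTNB, a titin, changed by −0.82 and was lost without old replicate 2 or young replicates 3 or 4 (adjusted p = 0.0696 to 0.103), and TMOD4, which caps actin filaments, changed by −0.74 and was lost without old replicate 2 or young replicates 3, 4 or 5 (adjusted p = 0.0652 to 0.103). The single higher member, TCAP, which holds titin at the Z disc, rested on 1 animal. It had 22.4, 69.4, 41.1, 454 and 83.6 CPM in old males, against 54.4, 22.4, 51.9, 15.1 and 25.7 CPM in young males (log2 fold change 2.0, SE 0.52, adjusted p = 0.0221), and its adjusted p without old replicate 4 was 0.451. It was also lost without young replicates 2, 4 or 5 (adjusted p = 0.0665 to 0.0853) and in DESeq2's Wald test (adjusted p = 0.160). On plain library sizes 8 of the 44 genes were lower and 4 higher (median −0.06).

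Calcium handling showed the same direction. Of 22 tested genes, 5 were lower and none higher (median −0.13, which is 0.40 on plain library sizes, in each case below the median of all genes). Parvalbumins, the small cytosolic proteins that soak up calcium in fast fibres, accounted for 3 of the 5. PVALB1 had 628, 486, 1444, 1228 and 1375 CPM in old males, against 2536, 4459.6, 3502, 4396 and 2223 CPM in young males, without overlap. PVALB1 changed by −1.73 on the log2 scale (SE 0.25, adjusted p = 3.76e-05). PVALB4 averaged 1323 ± 682 CPM in old and 3267 ± 536 CPM in young males and PVALB3 10092 ± 4305 CPM in old and 20167 ± 1915 CPM in young males (SD, n = 5 each), with log2 fold changes of −1.31 (adjusted p = 0.0017) and −1.0 (adjusted p = 0.0102). In PVALB4 old replicates 2 and 4 were the lowest animals, whereas in PVALB1 they were old replicates 1 and 2. The 2 proteins of the sarcoplasmic reticulum that hold calcium, CASQ1A (−0.85, adjusted p = 0.0166) and SRL (−0.90, adjusted p = 0.014), made up the rest of the 5. More than 1 tested line carries the name CASQ1A, and only the line given here, Nfu_g_1_020067, was called. CASQ1A was lost without young replicates 3 or 4 (adjusted p = 0.0549 to 0.0617) and SRL without old replicate 5 or young replicates 1, 3 or 4 (adjusted p = 0.0516 to 0.0811). Without young replicate 3 or young replicate 4, 3 of the 22 genes were called. ATP2A1L, a calcium pump outside these 22 genes, took 1.29 to 2.82% of the counts in old and 1.07 to 1.17% in young males, without overlap. It did not pass the test on TMM-scaled library sizes (log2 fold change 0.38, SE 0.21, adjusted p = 0.387). On plain library sizes ATP2A1L was called higher in old males (log2 fold change 0.95, adjusted p = 8.69e-05 by edgeR's test). Of 10 slow fibre genes 1 was lower, CASQ2 (−1.13, adjusted p = 0.0448), and it was lost without old replicates 2, 4 or 5 or young replicates 1, 2, 3, 4 or 5 (adjusted p = 0.0533 to 0.188).

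Genes that supply the fibre with energy were lower for the most part where they were called. In glycolysis and glycogen breakdown 7 of 37 genes were lower and 1 higher (median −0.42, or 0.09 on plain library sizes, where the median of all genes was 0.63). GAPDH averaged 8565 ± 2908 CPM in old and 16694 ± 1126 CPM in young males (SD, n = 5 each) and had a log2 fold change of −0.96 (SE 0.22, adjusted p = 0.00678). TPI1B (−1.04, adjusted p = 0.00167), ENO1A (−0.92, adjusted p = 0.00506), PGM1 (−0.98, adjusted p = 0.00543) and GPI (2 OF 3) (−0.92, adjusted p = 0.00678) are further enzymes of sugar breakdown, and none of the 4 overlapped between the ages. On plain library sizes these 4 lost their calls (adjusted p = 0.0635, 0.0786, 0.0834 and 0.126), as did PYGMB (0.144) and PGAM2 (0.204), so that the split of the list turned to 4 higher and 1 lower. PYGMB, the muscle glycogen phosphorylase, changed by −1.33 and lost its call without young replicate 3 (adjusted p = 0.0579), and PGAM2, the muscle phosphoglycerate mutase, changed by −1.08 and lost it without old replicates 4 or 5 or young replicates 1, 2, 3, 4 or 5 (adjusted p = 0.0649 to 0.133). PFKFB4L, of the family that sets the level of fructose 2,6-bisphosphate, had 89.7, 39.1, 11.7, 332 and 45.6 CPM in old males, against 5.44, 33.6, 32.4, 22.6 and 25.7 CPM in young males. PFKFB4L changed by 2.13 on the log2 scale (SE 0.56, adjusted p = 0.0227). Most of that difference lay in old replicate 4, without which the adjusted p was 0.423, and the call was also lost without any 1 young replicate (adjusted p = 0.0504 to 0.0885). In DESeq2's Wald test PFKFB4L was lost too (adjusted p = 0.153). ALDOAA, an abundant aldolase, did not pass the test (log2 fold change −0.65, SE 0.23, adjusted p = 0.126).

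Of 8 genes that buffer ATP, CKMB and GAMT were lower and AMPD1 was higher. CKMB, the muscle creatine kinase, had 4005, 2261, 5200.3, 3464 and 2739 CPM in old males, against 6824, 8538, 9694, 8829 and 7427 CPM in young males, without overlap. CKMB changed by −1.23 on the log2 scale (SE 0.21, adjusted p = 0.000425). GAMT, which makes creatine, averaged 280.4 ± 89.0 CPM in old and 602 ± 108 CPM in young males (SD, n = 5 each; log2 fold change −1.11, SE 0.22, adjusted p = 0.00195). AMPD1, which removes AMP, changed by 0.80 (adjusted p = 0.0325) and was lost without old replicate 5 or young replicates 1, 2 or 5 (adjusted p = 0.0614 to 0.101). In the citric acid cycle and pyruvate entry 2 of 16 genes were lower. MDH1 (2 OF 2), the cytosolic malate dehydrogenase, changed by −1.23 (adjusted p = 0.00199, and 0.0552 on plain library sizes).

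Of 72 nuclear genes of oxidative phosphorylation 4 were lower and 1 was higher (median −0.25, or 0.28 on plain library sizes, where 4 were higher and none lower). ATP5G3B, a subunit of the ATP synthase rotor ring, averaged 740.4 ± 153 CPM in old and 1435 ± 254 CPM in young males (SD, n = 5 each; log2 fold change −0.96, SE 0.19, adjusted p = 0.00217). COX4I2, an alternative subunit of cytochrome c oxidase, was higher, with 89.7, 82.5, 117, 61.4 and 129 CPM in old males, against 21.8, 33.6, 32.4, 22.6 and 32.1 CPM in young males, without overlap. COX4I2 changed by 1.72 on the log2 scale (SE 0.35, adjusted p = 0.00273). The other lower genes, NDUFB9 of complex I (−0.75), COX5A (1 OF 2) (−0.71) and COX7A2 (−2.44), each lost their calls when any of at least 6 libraries was left out. These were old replicates 2, 4 or 5 or young replicates 1, 2, 3, 4 or 5 (adjusted p = 0.0742 to 0.133) for NDUFB9, old replicates 2, 4 or 5 or young replicates 1, 2, 4 or 5 (adjusted p = 0.0659 to 0.145) for COX5A (1 OF 2) and old replicates 4 or 5 or young replicates 1, 2, 4 or 5 (adjusted p = 0.065 to 0.168) for COX7A2. The number of these genes called lower was accordingly 1 without old replicate 4 or 5 or young replicate 1, 2, 4 or 5, and 2 without old replicate 2. The gene model of COX7A2 overlaps CEBPZ, and that of NDUFB9 a model without a name, on the same strand. In the handling of fatty acids 3 of 26 genes were lower and 1 was higher. HADHAB, of mitochondrial beta-oxidation, changed by −1.32 (adjusted p = 0.00553, lost without young replicate 2 at adjusted p = 0.0568), FABP3, the muscle fatty acid carrier, by −0.90 (adjusted p = 0.0126, lost without old replicate 5 at adjusted p = 0.0522) and ACAA2, also of beta-oxidation, by −0.82 (adjusted p = 0.0354, lost without old replicates 2, 4 or 5 or young replicates 1, 2, 4 or 5 at adjusted p = 0.065 to 0.199). DGAT1B, which makes triglycerides, changed by 1.61 (adjusted p = 0.0481) and was lost without old replicates 2, 4 or 5 or young replicates 1, 2, 3, 4 or 5 (adjusted p = 0.0562 to 0.135). Without old replicate 5 or young replicate 2, 1 of the 26 genes was called lower. Scaled by plain library size, none was lower and 1 was higher, with adjusted p of 0.123 for HADHAB, 0.160 for FABP3 and 0.433 for ACAA2.

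**Figure D2:**
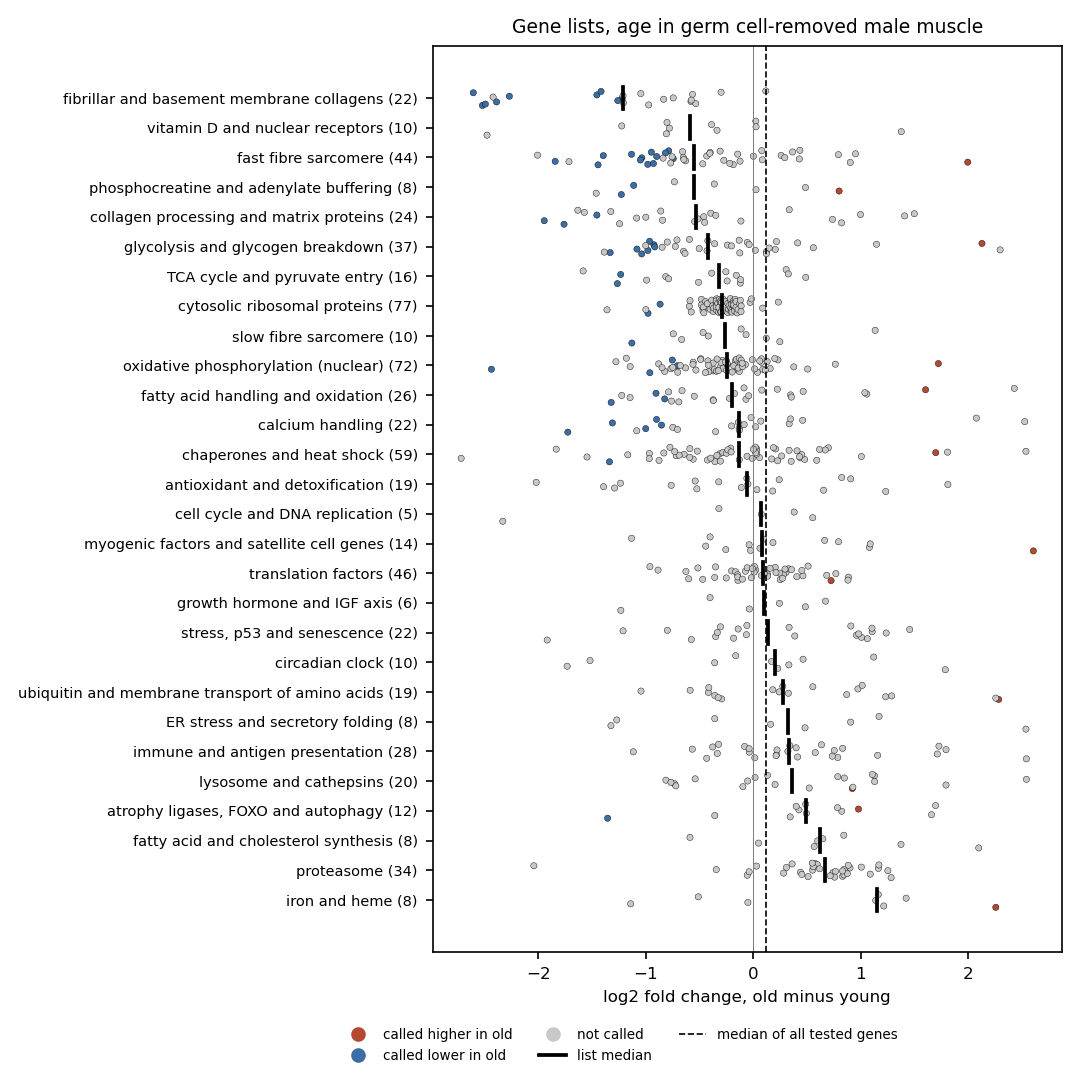
Log2 fold change (old minus young) of each tested member of 28 gene lists in germ cell–removed male muscle, with the number of tested genes in brackets; coloured points passed the test, black bars are list medians and the dashed line is the median of all tested genes. The collagen list has the lowest median, at −1.21, with 9 of 22 members called lower, and the iron and heme list the highest, at 1.15, with 1 of 8 called higher. The lists were chosen with earlier results of these data known.

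Protein synthesis and turnover gave few calls on TMM-scaled library sizes. Of 77 cytosolic ribosomal protein genes 2 were lower, RPL22L1 (−0.98, adjusted p = 0.00474) and RPLP0 (−0.87, adjusted p = 0.0156). The list's median was −0.29 (0.20 on plain library sizes, where both calls were lost at adjusted p = 0.123 and 0.0808), and 6 members were lower without old replicate 1 and 4 without old replicate 3. Of 46 translation factors PABPC1B, a poly(A)-binding protein, was higher, with 717, 534, 575, 659 and 794 CPM in old males, against 348, 308, 441, 459.9 and 430.4 CPM in young males, without overlap (log2 fold change 0.73, SE 0.19, adjusted p = 0.0253). The call was lost without young replicate 2 (adjusted p = 0.058). None of 34 proteasome genes passed the test, although their median log2 fold change was 0.67 and their summed level was highest in old replicate 4 (3378 CPM) and old replicate 5 (2207 CPM), against 1124 to 1486 CPM in young males. Old replicates 1 and 3, with 1128 and 1467 CPM, lay within the young range. On plain library sizes 16 of the 34 proteasome genes and 10 of the 46 translation factors were called higher and none lower, and 4 proteasome genes were called higher without old replicate 3, 2 without old replicate 1 and 1 without old replicate 2. Of 59 chaperone genes HSP90AA1.2, a cytosolic HSP90, was lower (302 ± 166 CPM in old and 748 ± 181 CPM in young males, SD, n = 5 each; log2 fold change −1.34, SE 0.28, adjusted p = 0.00367), and FKBP5, a co-chaperone that glucocorticoids induce in mammals, was higher (1.7, adjusted p = 0.0431), a call lost without old replicate 4 or young replicates 2, 3, 4 or 5 (adjusted p = 0.0724 to 0.144). DESeq2's Wald test did not call FKBP5 either (adjusted p = 0.0863). Of 12 genes of muscle atrophy and autophagy, TRIM63 (2 OF 2), the ubiquitin ligase also known as MuRF1, had 38.0 to 61.4 CPM in old and 56.0 to 227 CPM in young males (log2 fold change −1.35, SE 0.34, adjusted p = 0.0172), and its relative TRIM55A had 172 to 319 CPM in old and 67.9 to 148 CPM in young males (log2 fold change 0.98, SE 0.26, adjusted p = 0.021). The call of TRIM63 (2 OF 2), whose gene model overlaps COPS8 on the same strand, was lost without old replicate 5 or young replicates 3 or 4 (adjusted p = 0.0892 to 0.197), and that of TRIM55A without young replicates 2 or 4 (adjusted p = 0.0551 to 0.0621). By edgeR's test TRIM63 (2 OF 2) was also lost on plain library sizes (adjusted p = 0.160) and with all 8 muscle groups in 1 fit (0.180). In libraries thinned to the smallest total both were lost (0.0594 for TRIM63 (2 OF 2) and 0.0751 for TRIM55A). FBXO32, the other classical atrophy ligase, did not pass the test, with 2, 0, 0, 10 and 10 counts in old and 2, 4, 6, 5 and 4 counts in young males.

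The genes with the lowest adjusted p among those higher in old males were of several kinds. The first, CU571255.1, and BX511121.1 carry clone names with no described function. CU571255.1 had 97.1, 152, 158, 397 and 182 CPM in old males, against 38.1, 28.0, 25.9, 37.7 and 12.8 CPM in young males. CU571255.1 changed by 2.79 on the log2 scale (SE 0.37, adjusted p = 1.37e-05). BX511121.1 had 59.8, 191, 129, 287 and 186 CPM in old males, against 43.5, 56.0, 6.48, 30.2 and 19.3 CPM in young males. BX511121.1 changed by 2.43 on the log2 scale (SE 0.38, adjusted p = 0.000168). Old replicate 4 was the highest animal for both, and neither overlapped between the ages. CAPRIN1 (1 OF 2), an RNA-binding protein found in stress granules in mammals, had 844, 764, 675, 630.5 and 714 CPM in old males, against 359, 319, 363, 429.8 and 392 CPM in young males. CAPRIN1 (1 OF 2) changed by 0.96 on the log2 scale (SE 0.19, adjusted p = 0.00174). Every old animal was above every young one for CAPRIN1 (1 OF 2), with old replicates 3 and 4 the lowest of the old group. ANKRD1A, an ankyrin repeat protein that binds titin and responds to load in mammalian muscle, had 202, 577, 247, 545 and 585 CPM in old males, against 109, 123, 149, 234 and 186 CPM in young males, where old replicate 1 overlapped the young range (log2 fold change 1.46, SE 0.27, adjusted p = 0.00107).

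MID1IP1L, related to a regulator of fatty acid synthesis, averaged 1249.6 ± 509.9 CPM in old and 551 ± 83.9 CPM in young males (SD, n = 5 each; log2 fold change 1.19, SE 0.23, adjusted p = 0.00146). The acyl-CoA synthetase ACSF2 (2 OF 2) averaged 211 ± 110.3 CPM in old and 60.5 ± 26.3 CPM in young males (SD, n = 5 each; log2 fold change 1.85, SE 0.33, adjusted p = 0.000709). MYOC (1 OF 2), a secreted glycoprotein, had 119.6 to 391 CPM in old and 56.0 to 110.2 CPM in young males, without overlap. MYOC (1 OF 2) changed by 1.51 on the log2 scale (SE 0.30, adjusted p = 0.00198). FTL, a subunit of the iron store ferritin, had 157, 199.6, 223, 1572 and 293 CPM in old males, against 114, 95.2, 97.3, 113 and 96.4 CPM in young males. FTL changed by 2.26 on the log2 scale (SE 0.42, adjusted p = 0.00096). Every old animal was above every young one for FTL, and old replicate 4 stood far above the rest. Without that animal the log2 fold change of FTL was 1.14, with an adjusted p of 0.00462 by edgeR's test. FTL was the only call among 8 iron and heme genes, and its gene model overlaps SYT5A on the same strand. PSAP, a lysosomal precursor, was the only call among 20 lysosomal genes (0.92, adjusted p = 0.0445, lost without old replicates 4 or 5 or young replicates 2, 3, 4 or 5 at adjusted p = 0.0538 to 0.0933), and PRODH (2 OF 3), a proline oxidase, the only one among 19 genes of ubiquitin and amino acid transport (2.29, adjusted p = 0.0288, lost without old replicates 4 or 5 or young replicates 1, 2 or 4 at adjusted p = 0.0667 to 0.114).

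Among the 79 lower genes outside the lists, HHATLA, related to an acyltransferase of the endoplasmic reticulum, and MARK4 (1 OF 2), a microtubule-regulating kinase, had log2 fold changes of −1.40 (adjusted p = 0.000408) and −1.69 (adjusted p = 0.000597), without overlap. MARK4 (1 OF 2) lies on the minus strand of sgr06 from 853749 to 859236, close to CKMB on the plus strand from 850390 to 852346. Whether the counts of these 2 genes are separate was not tested. Of the 100 higher genes 16 had no name in the files, among them Nfu_g_1_006903 (22.4 to 241 CPM in old and 0 to 19.3 CPM in young males; log2 fold change 3.28, SE 0.57, adjusted p = 0.000431). A second, Nfu_g_1_023611, had 176 counts in old and 3 in young males, a ratio of 45.3 (95% exact counting interval 15.3 to 222, for counting error only). Its counts were 1, 1, 0, 61 and 113 in old males, against 0, 1, 0, 0 and 2 in young males. Old replicates 4 and 5 thus held nearly all of them, and the call was lost in DESeq2's Wald test (adjusted p = 0.0926). Of the 79 lower genes 2 had none, and 1 of them, Nfu_g_1_008148, averaged 602 ± 306 CPM in old and 1992 ± 332 CPM in young males (SD, n = 5 each; log2 fold change −1.74, SE 0.24, adjusted p = 2.71e-05). OLA.26859, described only as uncharacterized, had 157, 135, 845, 651 and 623 CPM in old males, against 114, 146, 84.3, 113 and 141 CPM in young males (log2 fold change 2.01, SE 0.34, adjusted p = 0.000405), so that old replicates 1 and 2 lay at the young level or just above it and the other 3 old animals well above.

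**Figure D3:**
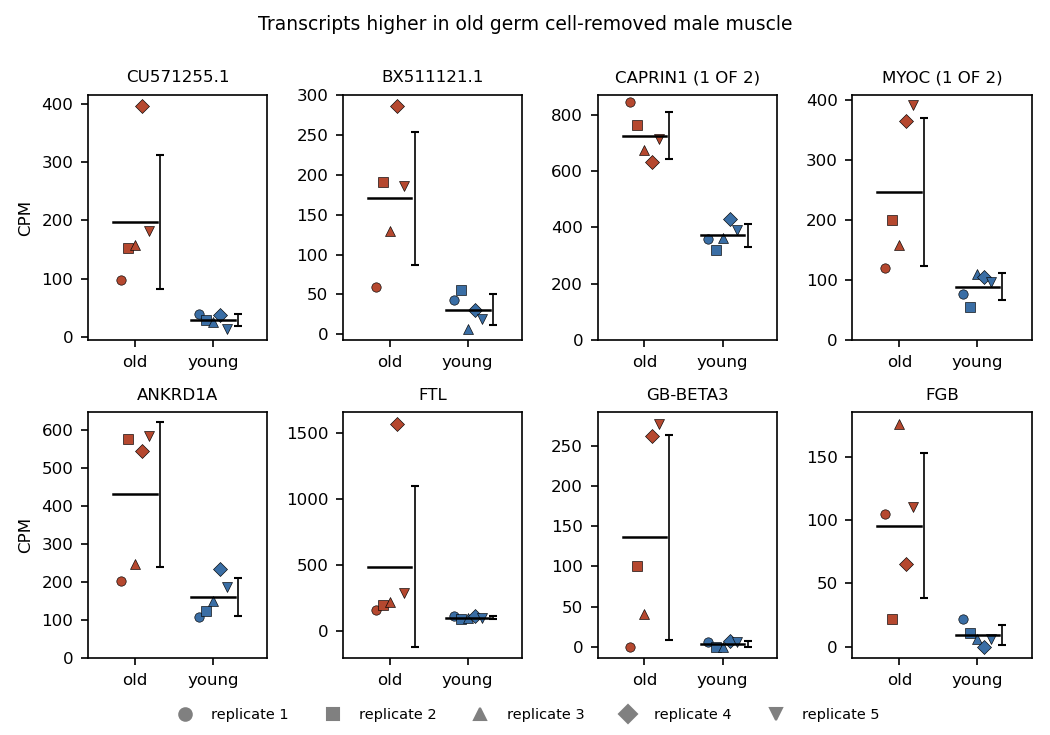
Level of 8 transcripts that were higher in old animals (CPM, TMM-scaled library sizes, y axes differ) in each of 5 old and 5 young germ cell–removed males; symbols mark replicates, horizontal lines the mean and error bars 1 SD. CAPRIN1 (1 OF 2) and MYOC (1 OF 2) are higher in all 5 old animals than in any young animal, FTL is dominated by old replicate 4, and GB-BETA3 is at 0 in old replicate 1.

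Several of the higher genes are known from other tissues, and several were uneven among the old animals. The globins GB-BETA3 and GB-ALPHA2, oxygen carriers of red cells, were higher in 4 of the 5 old animals than in any young one. GB-BETA3 had 0, 99.8, 41.1, 262 and 277 CPM in old males, against 5.44, 0, 0, 7.54 and 6.42 CPM in young males. With 167 counts in old and 3 in young males in all, the ratio of old to young was 43.0 (95% exact counting interval 14.5 to 211). That interval covers counting error only and leaves out the spread among animals. By edgeR's test the adjusted p was 6.2e-05. GB-ALPHA2 had 0, 312, 93.9, 385 and 551 CPM in old males, against 21.8, 39.2, 58.4, 45.2 and 38.5 CPM in young males. GB-ALPHA2 changed by 2.77 on the log2 scale (SE 0.50, adjusted p = 0.000719). Old replicate 1 was at 0 for both, and the other 4 old animals were above every young animal. GB-ALPHA2 overlaps 2 other gene models, and its call was lost in DESeq2's Wald test (adjusted p = 0.0503). One of these models, Nfu_g_1_007730 on the opposite strand, was more abundant, with 0.367 to 1.85% of the counts in old and 0.405 to 0.680% in young males. It was not called (log2 fold change 0.57, adjusted p = 0.274 by edgeR's test). Since strand use is not given, the counts of the 2 models may not be separate. The 2 tested red cell markers outside the globins were not called (14.9 to 64.6 CPM in old and 6.42 to 32.4 CPM in young males in sum).

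Of 8 tested liver genes 3 were higher in old males and none was lower (median 2.09). FGB, a fibrinogen chain, had 105, 21.7, 176, 65.5 and 110.2 CPM in old males, against 21.8, 11.2, 6.48, 0 and 6.42 CPM in young males (log2 fold change 3.17, SE 0.53, adjusted p = 0.000402), FGG had 17.4 to 205 CPM in old and 0 to 49.0 CPM in young males and APOA1 26.0 to 534 CPM in old and 0 to 76.2 CPM in young males. The 8 genes summed to 613, 113, 1579, 262 and 767 CPM in old males, against 403, 16.8, 214, 7.54 and 199 CPM in young males. The highest sums were thus in old replicates 3 and 5, but old replicates 2 and 4 lay within the young range. FGG lost its call without young replicate 2 (adjusted p = 0.0508) and APOA1 without old replicates 3 or 5 or young replicates 2, 4 or 5 (adjusted p = 0.065 to 0.147). Both were lost in DESeq2's Wald test (adjusted p = 0.112 and 0.236). By edgeR's test APOA1 was also lost with all 8 muscle groups in 1 fit (adjusted p = 0.0586) and with legacy = FALSE (adjusted p = 0.0714). In the absence of both old replicates 3 and 5, FGB was the only liver gene called, and APOA1 had an adjusted p of 0.907. Without young replicate 2 also, 1 liver gene was called. Of 9 exocrine pancreas genes all had a positive log2 fold change and 1, the elastase CELA1 (1 OF 2), was called (82.2, 69.4, 194, 139 and 159.6 CPM in old males, against 38.1, 16.8, 32.4, 15.1 and 70.7 CPM in young males; log2 fold change 1.88, SE 0.37, adjusted p = 0.00202). Of 5 skin and epithelium genes KRT5, a keratin of the basal epidermis, had 934, 556, 3134, 1171 and 1656 CPM in old males, against 642, 879.6, 642, 701 and 867 CPM in young males (log2 fold change 0.99, SE 0.27, adjusted p = 0.0277), with old replicate 3 the highest animal, and the call was lost without old replicate 3 or young replicates 1, 3 or 4 (adjusted p = 0.0614 to 0.0962) or both old replicates 3 and 5 (adjusted p = 0.730). KRT5 was the only call among the 5 genes, of which 4 had a positive and 1 a negative log2 fold change. Their median was 0.57, and 0.0066 without old replicates 3 and 5. A further pair of epithelial genes, outside this list and picked because of their values, belong to the desmosome. DSPA had 29 counts in old and 0 in young males, so it was at least 7.47-fold higher against a floor of 3 counts over the group. PKP3 (2 OF 2) had 17 and 1, a ratio of 13.1 (95% exact counting interval 2.06 to 549). The floor and the interval cover counting error only and leave out the spread among animals. In the same libraries, the fibroblast markers, which are the 3 type I collagen genes above, summed to 221 to 2167 CPM in old and 4258 to 6755 CPM in young males, and the 4 tested macrophage markers, none of them called, to 94.2 to 176 CPM in old and 57.8 to 81.6 CPM in young males. The part of other tissues in these differences was not tested. Without old replicates 3 and 5, a fit chosen after seeing the data, 6 of 19 collagens were called lower, all 3 type I genes among them. In that fit 17 of 43 fast sarcomere genes and 7 of 35 glycolytic genes were lower, with 1 higher in each list. Old replicate 3, left out there, had the highest fast sarcomere sum (337137 CPM) and glycolysis sum (60607 CPM) of the old animals. Its collagen sum (2753 CPM) was below only that of old replicate 1 (3504 CPM). Since leaving it out also removes high values of these lists, this fit does not test the part of other tissues.

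**Figure D4:**
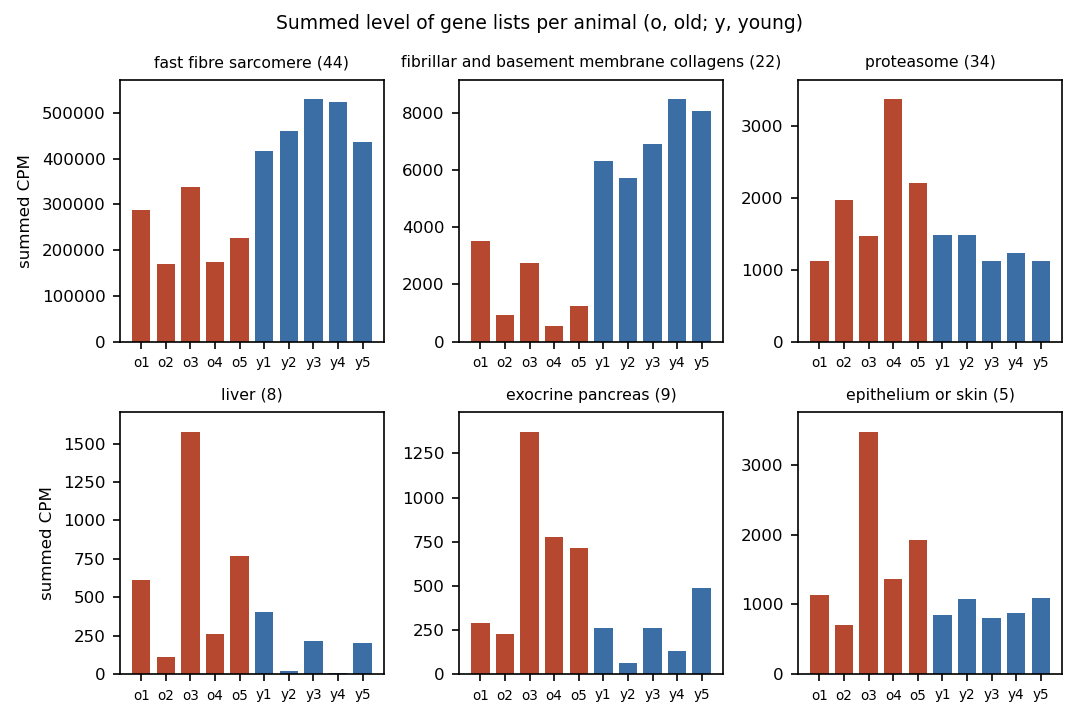
Summed level (CPM) of 6 gene lists in each old (o1 to o5) and young (y1 to y5) germ cell–removed male, with the number of tested genes in brackets and y axes from 0. The fast sarcomere and collagen sums of all old animals lie below those of all young animals, and the liver, pancreas and skin sums are highest in old replicate 3.

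Genes of satellite cells, growth and vitamin D signaling gave few counts. PAX7 (1 OF 2), the satellite cell factor, had 6 counts in old and 2 in young males in all, below the minimum of 10 for a test. MYOD1 (2 OF 2), of activated satellite cells, had 8 and 14 counts (log2 fold change −1.13, SE 0.66, adjusted p = 0.441), and VDRB, a vitamin D receptor, had 8 and 2 (log2 fold change 1.38, SE 0.99, adjusted p = 0.551). The second receptor line, VDR (1 OF 2), and IGF1 had 0 counts in all 10 libraries, so a difference in these 2 genes was not detectable at this depth. None of 10 tested genes of vitamin D and nuclear receptor signaling was called (median −0.58). The same held for 5 cell cycle genes, 6 genes of the growth hormone and IGF axis, 8 of lipid synthesis, 8 of endoplasmic reticulum stress, 10 of the circadian clock, 22 of stress and senescence, 19 of antioxidant defence and 28 of immunity and antigen presentation, whose medians lay between −0.06 (antioxidant) and 0.62 (lipid synthesis). With plain library sizes 5 antioxidant and 5 immune genes were called higher, and 1 each of lipid synthesis, the clock and stress. In simulated libraries of this depth, with 4847 genes tested, 100% of genes changed by 2 and 55% of genes changed by 1 on the log2 scale were called, for genes with at least 10 times the minimum count. PAX7 (1 OF 2), MYOD1 (2 OF 2) and VDRB lay below that count. The simulation gave every gene and both groups 1 common spread. Pairs of real animals differed more among old than young males (chi-square per degree of freedom 3.87 to 9.94 against 1.64 to 3.08), so these shares may be too high for the real data.

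Control males of the same ages were compared in the same way, from 10 other animals, of which young replicates 1 and 2 had fewer reads and were not sampled down (102521 and 107894 counts). There 260 of 5185 genes (5.01%) were called between old and young, 154 higher and 106 lower. Of the 179 genes called in germ cell–removed males, 119 were also called in control males, all of them in the same direction, which is 66.5% of the one list and 45.8% of the other. In all, 175 of the 179 had the same sign. The type I collagens changed in control males by −2.22 (COL1A1A), −2.41 (COL1A1B) and −2.34 (COL1A2), beside −2.27, −2.39 and −2.52 in germ cell–removed males. Of the 19 collagens tested in both, 9 were lower in control males (median −1.16), and of 44 fast sarcomere genes 12 were lower and 1 higher (median −0.44). Markers of other tissues were also higher in old control males, with 8 of 8 liver genes (median 4.30, beside 2.09 and 3 of 8 in germ cell–removed males) and 5 of 9 exocrine pancreas genes called higher, and their part in the muscle lists was not tested. PVALB1 changed by −1.11 in control males, beside −1.73 in germ cell–removed males. Whether the effect of age differed with treatment was tested directly as an interaction. Of 7135 genes 0 were called (0%) by edgeR's test, and 0 by DESeq2's Wald test, while 283 had an unadjusted p under 0.05 in edgeR's test. In simulated libraries the interaction test called 67% of genes whose age effect differed by 2, and 11% of those that differed by 1 on the log2 scale, so most differences of the smaller size would have been missed. These simulated libraries also had 1 spread common to all genes and groups, and genes of few counts were not among those changed.

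**Figure D5:**
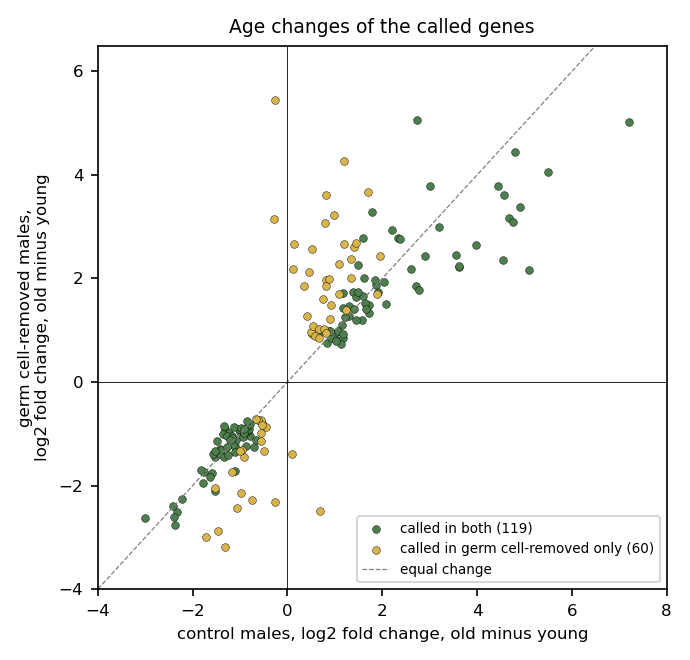
Log2 fold change (old minus young) of the 179 genes called in germ cell–removed males, in control males (x axis) and in germ cell–removed males (y axis); green points were called in both comparisons and the dashed line marks equal change. The genes were picked by their values on the y axis, and 175 of the 179 have the same sign on both axes.

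The gene with the lowest interaction p was DSPA (adjusted p = 0.322 by edgeR's test). It had 29 and 0 counts in old and young germ cell–removed males and 15 and 12 in old and young control males. With 0 counts in young germ cell–removed males, the size of this interaction could not be measured. The second COL10A1 line had 7 and 34 counts in old and young germ cell–removed males, beside 103 and 41 in old and young control males (interaction −3.26 on the log2 scale, not called). Nearly all counts of the old control males came from 1 animal, at 499 CPM. The medians of this line were 4.24 CPM in old and 34.6 CPM in young germ cell–removed males, and 5.19 CPM in old and 61.2 CPM in young control males. With the replicate number as a block 1 gene was called, and 1 without old replicate 3 of the germ cell–removed males.

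The change with age was also set against that in germ cell–removed females, of which young replicates 4 and 5 had fewer reads and were not sampled down (129246 counts in young replicate 4 and fewer in young replicate 5, the smallest muscle library). Of 7179 genes, 5 (0.0696%) differed between the sexes in their change, and 4 of the 5 differences were positive, with males above females. COL10A1 (1 OF 2) changed by −2.61 in males and −5.50 in females (difference 2.81, SE 0.61, adjusted p = 0.0373), so it was lower with age in both sexes and more so in females. Of the digestive enzymes, CELA1 (1 OF 2) had log2 fold changes of 1.88 in males (adjusted p = 0.00202) and −0.81 in females (adjusted p = 0.306), with a difference of 2.66 (SE 0.59, adjusted p = 0.0407). TRY, a trypsin, had 1.55 in males (adjusted p = 0.0583) and −1.02 in females (adjusted p = 0.0740), neither called, and a log2 difference of 2.53 (SE 0.58, adjusted p = 0.0488). ODC1, the first enzyme of polyamine synthesis, had log2 fold changes of 0.28 in males (adjusted p = 0.855) and −2.63 in females (adjusted p = 4.21e-07), with a difference of 2.86 (SE 0.66, adjusted p = 0.0488). ANGPTL4 (2 OF 2), an inhibitor of lipoprotein lipase, had log2 fold changes of −0.66 in males (adjusted p = 0.539) and 2.42 in females (adjusted p = 9.85e-06), with a difference of −3.14 (SE 0.64, adjusted p = 0.0211). It averaged 36.4 ± 23.6 CPM in old and 56.1 ± 46.2 CPM in young males, and 92.7 ± 28.6 CPM in old and 13.9 ± 14.6 CPM in young females (SD, n = 5 each). The number of these calls changed with the fit. None was called in DESeq2's Wald test, with filterByExpr or with all muscle libraries in 1 fit, and none was left without young male replicate 1 or 2 or old female replicate 3. There were 10 calls without old female replicate 4, 8 without old male replicate 4, 3 without old male replicate 1 or 3, young male replicate 4 or young female replicate 3 or 4, 2 without old male replicate 5 or young female replicate 5, and 1 without young female replicate 1.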

How the data were processed

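RNA was extracted from the muscle of 5 animals per group and read by BRB-seq, and the counts the authors deposited are unique molecular identifiers per gene. Their notes and methods name Trim Galore 0.6.7, HISAT2 2.2.1, the GRZ assembly, featureCounts 2.0.1 and UMI-tools, with the reads of each deeper muscle library sampled to a common number. Whether strand was used is not given in the sources used here. Of 20406 lines in the table, 1877 without a gene identifier were left out, and the 40 liver columns were not used. Groups follow the column names.

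Genes with at least 10 counts over the compared libraries were tested with edgeR 4.0.16 (R 4.3.3), the quasi-likelihood test on TMM-scaled library sizes, Benjamini-Hochberg adjusted over all genes tested, with a call at an adjusted p under 0.05. Age was compared in 5 against 5 libraries, and interactions were fitted over the 4 groups concerned. Fold changes are old over young. Each SE was derived from the test, as the size of the log2 change over the square root of its F statistic. Depth was 129270 to 216291 counts per compared library, and counting intervals and floors cover counting error only. All 20 pairs of replicates differed beyond counting noise (chi-square per degree of freedom at least 1.64). The fits were tested on simulated data.

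Genes were named by a rule, which took the 15 smallest adjusted p among higher and among lower genes, called list members, genes the study measured, genes above 1% of a library, and the called genes of each interaction; a few of these are not reported here. Members and lists were chosen with earlier results of these data known. Alternatives were RLE size factors, plain library sizes, no genes above 1%, DESeq2 1.42.0, other filters, all 8 muscle groups in 1 fit, thinned libraries, a replicate block and each library left out. A fit with legacy = FALSE, in which the spread was not estimated beforehand, was chosen after seeing the data. So was a fit without old replicates 3 and 5, which had the highest liver marker sums of the old males. Old replicate 4, kept in that fit, had a higher exocrine pancreas sum (778 CPM) than old replicate 5 (714 CPM).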

Additional observations from a re-analysis of the deposited data

Results flagged for a closer look

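Of 206 groups of 5 animals examined, 12 held an animal far from the other 4 by Dixon's test, 7 among old and 5 among young males, and chance alone marks about 1 in 20 groups. Old replicate 4 was the high animal for CU571255.1 (397 CPM), FTL (1572 CPM), TCAP (454 CPM) and PFKFB4L (332 CPM). Old replicate 1 was the high animal for PRELP (97.1 CPM), COL5A1 (306 CPM) and COL5A2 (1 OF 2) (149 CPM). In young males, replicate 4 was high for ENO1A (2413 CPM) and MYOM1 (1 OF 2) (761 CPM), replicate 1 for FGG (49.0 CPM) and replicate 5 for MYOD1 (2 OF 2) (32.1 CPM), and replicate 5 was low for RPL22L1 (482 CPM).

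The change with age differed between germ cell–removed males and females, by the interaction term of edgeR's test, for ANGPTL4 (2 OF 2) (−3.14), COL10A1 (1 OF 2) (2.81), CELA1 (1 OF 2) (2.66), TRY (2.53) and ODC1 (2.86), as male minus female log2 fold change.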

How the results depend on the processing

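The age comparison in germ cell–removed males gave 179 calls and stayed within 1.5 times of that under every alternative except plain library sizes (508) and single libraries left out (112 to 247). Of 88 called genes named by the rule, none changed direction under any alternative, 53 kept their call with every library left out in turn, 31 lost it on plain library sizes and 15 lost it in DESeq2's Wald test. Uncalled values changed sign as follows: on plain library sizes MARK4A (0.19), NME2B.2 (0.053) and FBXO32 (0.18), and in thinned libraries FBXO32 (0.31) and ODC1 (−0.39). With single libraries left out FBXO32 ran from −0.78 to 0.024 and ODC1 from −0.037 to 0.66. Of the named genes without a call, TRY, ATP2A1L and Nfu_g_1_007730 were called higher on plain library sizes. The interaction of age with germ cell removal gave 0 calls, 3 with every gene of at least 1 count, 1 with the replicate block and 0 to 1 with libraries left out. That with sex gave 5 calls, but 3 with RLE size factors or thinned libraries, 0 with DESeq2, filterByExpr, all 8 groups in 1 fit or legacy = FALSE, 10 with the replicate block and 0 to 10 with libraries left out. Deviations of same-numbered animals were not correlated over all tested genes (−0.03 to 0.03). This check includes many genes of few counts, whose counting noise hides a correlation, so it cannot exclude a pairing. The replicate block gave 211 calls, 172 of them shared. The causes were not tested. Depth limits genes of few counts.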
